A study of Mus musculus with 4 samples.

Results

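The glucocorticoid receptor and 7 of its direct target genes were followed through the leukocytes of 20967 melanomas that had been treated with control or with a glucocorticoid (GC). The members were chosen by name, with earlier results of these data known. Counts of members called are therefore set beside the share of all genes as a description, not as a test of the set. They were Nr3c1, which encodes the receptor, and the targets Fkbp5, Tsc22d3, Klf9, Zbtb16, Per1, Sgk1 and Dusp1. All 8 were found among the 32285 genes of the deposited expression table. The cells were live CD45+ cells sorted from 10 tumors, each marked with its own hashtag antibody, and sequenced with a droplet 3' single-cell kit. The 20967 line came from a C57BL/6 mouse with the alleles Nras+LSL-G12D and Tyr::CreERT2+/o, and every tumor, control or GC, grew intradermally in a wild-type C57BL/6 host. The 5 GC tumors received clobetasol propionate, a potent topical GC that the methods of the study give as an ointment, and the 5 control tumors a control treatment, given there as an emollient cream. All tumors came from this 1 line, and the age and sex of the hosts are not given in the sources used here.

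The receptor is a ligand-activated transcription factor that waits in the cytoplasm in a complex with heat shock protein chaperones and enters the nucleus once it binds its steroid. There it binds glucocorticoid response elements, in which a pair of inverted copies of a short sequence is separated by 3 free bases, and raises the transcription of nearby genes. Fkbp5 encodes an immunophilin that holds the receptor in a state of low affinity and so acts as a brake on it, Tsc22d3 encodes GILZ, a leucine zipper protein that restrains NF-kB and AP-1, and Klf9 and Zbtb16 encode zinc finger transcription factors. Dusp1 encodes a phosphatase that switches off MAP kinases, Per1 a repressor of the circadian clock and Sgk1 a kinase that regulates ion transport and survival. In leukocytes these genes are among the most widely used readouts of GC exposure, although Zbtb16 is also a lineage factor of innate-like T cells and Dusp1 and Sgk1 answer to stress and growth factors too.

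Promoter sequences were taken from RefSeq on GRCm38.p6 as windows from 250 bases before to 50 bases after each transcript start, and they are shown because a member that carries a response element next to its start can be told from one that does not. In 32851 such windows the full element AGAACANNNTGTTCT, searched on both strands, occurred without a mismatch in 3 windows (0.00913%), with at most 1 mismatch in 54 (0.164%) and with at most 2 in 606 (1.84%). One exact arm, AGAACA on either strand and so also part of any exact full element, occurred in 6233 windows (19.0%). For 6 of the 8 members 14 windows were given. Sgk1 alone held a full element with at most 2 mismatches, in 2 of its 6 windows. The first lies at chr10:21993701-21993715 on the plus strand, 189 bases upstream of a start, and matched without a mismatch in the window chr10:21993640-21993939, where capitals mark the element and a separate exact arm.
Sgk1 window: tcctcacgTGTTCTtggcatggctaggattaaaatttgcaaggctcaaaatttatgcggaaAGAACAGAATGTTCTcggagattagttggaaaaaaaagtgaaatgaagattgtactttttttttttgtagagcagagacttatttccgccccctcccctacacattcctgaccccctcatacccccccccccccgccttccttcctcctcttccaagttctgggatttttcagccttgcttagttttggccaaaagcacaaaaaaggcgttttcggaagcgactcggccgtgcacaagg
The second lies at chr10:21985921-21985935, 183 bases upstream of another start, with 2 mismatches, and is shown in capitals with 30 bases on each side.
Sgk1 second element: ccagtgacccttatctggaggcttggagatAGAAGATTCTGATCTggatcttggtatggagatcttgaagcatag
Tsc22d3 is shown because its window chrX:140600473-140600772 on the minus strand held an exact arm, in capitals, and no full element.
Tsc22d3 window: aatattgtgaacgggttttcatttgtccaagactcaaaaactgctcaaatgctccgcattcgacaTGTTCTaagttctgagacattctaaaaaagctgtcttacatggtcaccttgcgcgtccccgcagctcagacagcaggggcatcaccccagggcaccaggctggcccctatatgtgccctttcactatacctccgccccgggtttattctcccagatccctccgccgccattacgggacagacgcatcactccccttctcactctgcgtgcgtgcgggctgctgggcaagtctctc
Fkbp5 is shown because it rose in CD8 T cells, TAMs and neutrophils, although its window chr17:28486100-28486399 on the minus strand held neither.
Fkbp5 window: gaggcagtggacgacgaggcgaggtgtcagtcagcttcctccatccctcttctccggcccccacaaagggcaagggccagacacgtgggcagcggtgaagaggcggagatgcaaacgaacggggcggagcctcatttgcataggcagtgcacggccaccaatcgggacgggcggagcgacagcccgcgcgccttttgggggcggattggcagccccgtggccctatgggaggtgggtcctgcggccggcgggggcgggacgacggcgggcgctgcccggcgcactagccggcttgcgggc
Exact arms were also found in 2 other windows of Sgk1. The windows of Klf9, Per1 and Dusp1 held no arm and no full element, which says only that these letters were absent near these starts.

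The members lie on several chromosomes of mm10. Fkbp5 (ENSMUSG00000024222) spans chr17:28399094-28517527 on the minus strand, Tsc22d3 (ENSMUSG00000031431) chrX:140539528-140600659 on the minus strand, and Klf9 (ENSMUSG00000033863) chr19:23141226-23168134 on the plus strand. Zbtb16 (ENSMUSG00000066687) spans chr9:48654297-48836222 on the minus strand and Per1 (ENSMUSG00000020893) chr11:69095217-69109960 on the plus strand. Sgk1 (ENSMUSG00000019970) spans chr10:21882184-21999903 on the plus strand, and Dusp1 (ENSMUSG00000024190) chr17:26505590-26562128 on the minus strand, where its annotated span overlaps the start of Ergic1 on the opposite strand. Nr3c1 carries the identifier ENSMUSG00000024431. Reads in introns were counted as well as reads in exons, so a long gene such as Zbtb16 could gain counts from unspliced RNA.

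The table held 4108 cells, 3803 from control and 305 from GC tumors, with 347 to 1250 cells for each control tumor and 18, 75, 111, 22 and 79 cells for GC tumors 1 to 5. The median cell held 7440 unique molecular identifiers (UMIs, each a counted RNA molecule) in controls and 9163 in GC tumors. All control cells were run in one droplet channel and all GC cells in another, so that GC and channel cannot be told apart, and no cell barcode was shared between them. The control channel was loaded with 17100 cells and the GC channel with 3500. The numbers of cells in the table therefore do not measure how many leukocytes the tumors held. The cell type names deposited by the authors were kept and their 16 clusters joined into 12 classes. In 9 of 11 classes with a marker list the summed list was highest in its own class. The exceptions were the CD4 cluster, where the CD8 T cells were higher, and DC 2, where DC 1 was higher. Levels are given as the mean over the cells of a class in a tumor of UMIs per 10000 UMIs of the cell, and differences as log2 of that level plus 0.1.

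Nr3c1 was detected in every class of control leukocytes, and its level was highest in T cells, lower in neutrophils and lowest in macrophages, eosinophils and dendritic cells. The highest mean was that of gamma-delta T (gdT) cells, with 17.9, 16.9, 6.85, 19.1 and 17.4 UMIs per 10000 in control tumors 1 to 5 (15.6 ± 4.98, SD, n = 5). Regulatory T cells (Tregs) followed with 14.7, 10.8, 15.2, 13.0 and 16.2 (14.0 ± 2.11) and exceeded the CD4 cluster (10.5 ± 2.46) in 4 of 5 tumors. The gdT cells were above Tregs in 4 of 5 tumors and below them in control 3, so the top of the order rests on a difference within the spread. CD8 T cells, taken as clusters CD8 1 to CD8 3, stood at 7.95 ± 0.92, the small cluster CD8 4 at 6.10 ± 1.02 in 4 tumors and natural killer (NK) cells at 5.01 ± 1.15.

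Below the lymphocytes the order was tighter. Neutrophils stood at 3.70 ± 0.41 and monocytes at 2.21 ± 0.19 UMIs per 10000, and each was above the next class in 5 of 5 tumors. NK cells were likewise above neutrophils in every tumor. DC 2 (1.45 ± 0.46), eosinophils (1.44 ± 0.94), tumor-associated macrophages (TAMs, 1.40 ± 0.07) and DC 1 (0.98 ± 0.46) did not differ from their neighbors beyond the spread, each being above the next in 3 or 4 of 5 tumors. TAMs were the most even class, with 1.44, 1.49, 1.33, 1.42 and 1.32 in the 5 controls. The authors clustered the cells on expression, so these levels are a description without a test. Thinning every cell to 500 UMIs by a random draw left all places but those of NK cells and CD8 4 as they were. Such a draw leaves the expected level of each class unchanged, so the kept order is not a test of depth.

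**Figure D1:**
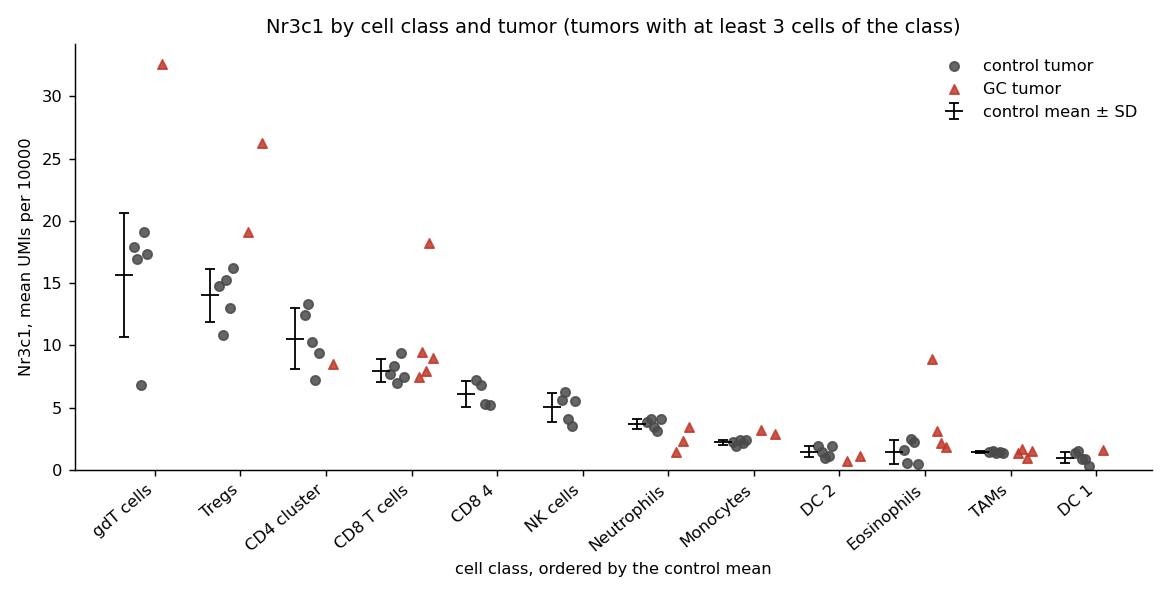
Level of Nr3c1 (y axis, mean UMIs per 10000 UMIs of the cell) by cell class (x axis, ordered by the control mean) in each tumor with at least 3 cells of the class; circles are control tumors, triangles GC tumors, and the bar is the control mean ± SD. Control means run from 15.6 in gdT cells to 0.98 in DC 1, and the highest GC values, 32.6 in gdT cells of GC 3 and 26.2 in Tregs of GC 5, are means over 6 and 5 cells.

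Of the 7 targets, 3 had their control maximum in gdT cells as the receptor did, and the other 4 in neutrophils, eosinophils or TAMs. Tsc22d3 was highest in neutrophils (4.14 ± 1.61 UMIs per 10000), above Tregs (2.16 ± 0.38) in 5 of 5 tumors. Dusp1 was highest in eosinophils (72.9 ± 9.62) and then neutrophils (59.5 ± 7.36), against 2.80 ± 1.15 in the CD4 cluster, the lowest. These granulocyte levels stood above those of monocytes in every tumor. Sgk1 was highest in TAMs (6.66 ± 0.95) and then monocytes (2.72 ± 0.52), and Per1 in neutrophils (2.98 ± 0.52). Fkbp5 was highest in gdT cells (1.49 ± 0.88), but above CD8 4 (1.39 ± 0.38) in only 2 of 4 tumors. In gdT cells Zbtb16 stood far above all other classes at 6.72 ± 2.55, with eosinophils next at 0.780 ± 0.735. Zbtb16 is known as the factor that drives the innate-like program of such T cells. Among the 12 classes Klf9 was at most 0.605 ± 0.297, in gdT cells, and lowest in eosinophils at 0.0372 ± 0.0831, although the cluster Monocytes 2 alone stood at 0.936 ± 0.292. Klf9 in gdT cells was above the next class, monocytes (0.511 ± 0.283), in only 2 of 5 tumors.

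In CD8 T cells, Fkbp5, Tsc22d3, Klf9 and Dusp1 rose under GC, and Per1, Sgk1 and Nr3c1 did not pass the test. The question of this comparison is whether the effector lymphocytes of the tumor showed GC exposure. It was fitted over 5 control tumors and GC tumors 2, 3 and 5, which held at least 10 CD8 T cells. GC tumors 1 and 4, with 7 and 9 cells, stayed out of the fit, and their values are given beside the others.

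Fkbp5 measured 0.592, 0.818, 0.728, 0.893 and 0.571 UMIs per 10000 in control tumors 1 to 5 and 5.37, 1.72, 3.04, 2.12 and 1.62 in GC tumors 1 to 5. All GC tumors lay above all controls. Tsc22d3 measured 1.40, 1.18, 1.57, 1.50 and 1.87 in controls and 7.39, 2.76, 4.85, 5.31 and 6.36 in GC tumors, again without overlap. Klf9 lay between 0.0781 and 0.158 in controls and between 0.384 and 1.11 in GC tumors. Dusp1 measured 4.41, 4.39, 3.89, 4.08 and 3.48 in controls and 14.3, 9.01, 5.43, 11.2 and 16.1 in GC tumors. GC 3, which gave 38 of the 107 GC cells, was the lowest GC tumor for Klf9 and Dusp1.

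In the limma fit with Benjamini-Hochberg adjustment over all 6158 genes, Tsc22d3 rose by 1.50 ± 0.23 (log2, SE; adjusted p = 0.00408), Fkbp5 by 1.40 ± 0.22 (adjusted p = 0.00486), Klf9 by 1.44 ± 0.25 (adjusted p = 0.00728) and Dusp1 by 1.18 ± 0.26 (adjusted p = 0.0257). Thus 4 of the 7 members tested were called, all higher, against 5.02% of all genes called and 2.27% called higher. In the same 4 members all 3 GC tumors lay above all controls, as they did for 5.70% of all genes. Klf9 passed the filter on low levels, a mean of 0.2, only through the GC tumors, so its call adds no support to that count. With edgeR on summed UMIs the same 4 passed, with adjusted p from 2.1e-05 for Fkbp5 to 0.0396 for Dusp1. The call of Dusp1 was lost when any control tumor or GC 2 was left out, with limma adjusted p from 0.0567 to 0.0931, and kept without GC 3 or GC 5.

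Per1 measured 0.544 to 0.816 in controls and 0.800, 1.62, 0.975, 0.673 and 0.704 in GC tumors, a difference of 0.64 ± 0.24 (limma adjusted p = 0.154). Without GC 5 it passed (adjusted p = 0.0441). Sgk1 went the other way in the means, from 0.462, 0.753, 0.475, 0.904 and 1.02 to 0.340, 0.207, 0.337, 0.106 and 0.613, with a difference of -0.79 ± 0.32 (limma adjusted p = 0.173). Its groups overlapped through GC 5. Nr3c1 measured 7.72, 8.31, 6.95, 9.34 and 7.42 in controls and 7.42, 9.47, 7.90, 18.2 and 8.99 in GC tumors, with a difference of 0.15 ± 0.12 (limma adjusted p = 0.507). Zbtb16 gave 4 UMIs in 880 control cells and 0 in 107 GC cells, where a count of 0, with its limit set at 3 counts, allows a level of up to 0.0289 UMIs per 10000, and was not tested. Among markers of other classes, the TAM list (5 genes) summed to 0.462 to 0.968 UMIs per 10000 in control CD8 T cells and 0.0943 to 0.266 in GC, the monocyte list (4 genes) to 11.7 to 17.1 and 1.51 to 5.11, and the DC 1 list (3 genes) to 0.170 to 0.569 and 0.674 to 8.36. In GC, 1 gene of the TAM list and 1 of the monocyte list were at 0. In controls the monocyte list also stood at 12.2 in Tregs and 7.03 in gdT cells, against 2.75 in neutrophils. It therefore does not mark monocytes alone. The lists of B cells and of tumor or stroma stayed at or below 0.0288 in both groups. The part of these in the member values was not tested.

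In TAMs, 5 of the 7 targets rose, and the receptor itself did not pass the test. The fit used 5 control tumors (75 to 198 TAMs each) and GC tumors 2 and 3 (17 and 16 TAMs). GC 4 and GC 5 held 3 and 7 TAMs and are given as values only, and GC 1 held none.

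Fkbp5 measured 0.235, 0.276, 0.195, 0.344 and 0.288 UMIs per 10000 in controls and 2.56, 3.28, 9.22 and 1.90 in GC tumors 2 to 5. Klf9 measured 0.177, 0.149, 0.233, 0.225 and 0.0818 in controls and 1.41, 1.84, 4.30 and 1.46 in GC. Every GC tumor exceeded every control by a wide margin for both genes. Tsc22d3 measured 1.02, 0.762, 0.853, 0.920 and 0.520 against 4.08, 4.46, 4.56 and 3.80, and Dusp1 11.6, 9.23, 11.2, 11.0 and 8.76 against 27.0, 28.6, 35.8 and 36.1. The GC tumors were close to each other for both, whereas Zbtb16 was uneven. It measured 0.0677, 0.0160, 0.0357, 0 and 0.0685 in controls and 0.170, 1.06, 1.56 and 0.151 in GC tumors 2 to 5, so that GC 3 and GC 4 carried most of it.

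Fkbp5 rose by 3.04 ± 0.19 (limma adjusted p = 7.76e-06), Klf9 by 2.68 ± 0.25 (9.17e-05), Tsc22d3 by 2.28 ± 0.21 (8.19e-05), Zbtb16 by 2.05 ± 0.48 (0.0134) and Dusp1 by 1.42 ± 0.13 (8.19e-05). All 8 members were tested and 5 were called, all higher, where 21.2% of 5988 genes were called and 6.86% called higher. Both GC tumors stood above all controls for 6 of the 8 members, these 5 and Per1, against 12.9% of all genes. Klf9 and Zbtb16 passed the filter only through the GC tumors, so both add no support to these counts. edgeR called the same 5 members, with adjusted p from 1.72e-07 for Fkbp5 to 0.00392 for Zbtb16, but 670 genes in all against 1270 with limma, of which 415 and 411 were higher. Zbtb16 had no value without GC 3, since its mean then dropped under the filter, and with a pseudocount of 1 its call was lost (limma adjusted p = 0.0575).

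Per1 measured 0.388 to 0.705 in controls and 0.932, 0.902, 0.399 and 1.29 in GC tumors (0.57 ± 0.20, limma adjusted p = 0.0652; 0.0995 with edgeR), and it passed in 5 alternatives, with adjusted p from 0.0104 to 0.0487. Sgk1, with 6527 of its 9252 control UMIs in TAMs, measured 6.39, 7.06, 6.60, 5.32 and 7.91 in controls and 5.67, 4.72, 0.203 and 3.71 in GC tumors. Its difference of -0.35 ± 0.15 did not pass (limma adjusted p = 0.118). Without GC 2 the adjusted p was 0.0455, but that fit holds 1 GC tumor and takes its spread from the controls alone. Nr3c1 measured 1.36, 1.68, 0.959 and 1.51 in GC tumors 2 to 5, with GC 3 and GC 5 above and GC 4 below the control range, and differed by 0.10 ± 0.13 (limma adjusted p = 0.623). The neutrophil marker list (4 genes) summed to 0.872 to 1.10 UMIs per 10000 in control TAMs and 1.93 to 3.63 in GC TAMs. The TAM list (5 genes) summed to 47.0 to 66.9 in control and 16.8 to 74.7 in GC tumors with at least 3 TAMs. For the monocyte list (4 genes) the sums were 12.4 to 21.7 and 13.9 to 48.2, so both lists were less even in GC. The part of these lists in the member values was not tested. The lists of B cells and of tumor or stroma were at or below 0.0534 in both groups.

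In neutrophils the largest differences were those of Klf9 and Zbtb16, which were near 0 in controls. The fit used 5 control tumors (24 to 40 neutrophils each) and GC tumors 2 and 3 (19 and 14 neutrophils), with GC 5 (7 neutrophils) as a value only. GC 1 and GC 4 held 2 neutrophils each and stayed out of the fit. Klf9 measured 0, 0, 0.134, 0.0710 and 0 UMIs per 10000 in controls and 1.44, 1.07 and 2.49 in GC tumors 2, 3 and 5. Zbtb16 measured 0, 0.149, 0.144, 0.166 and 0.114 in controls and 0.981, 1.99 and 1.90 in GC. Neither gene overlapped between the groups in these tumors. Fkbp5 was spread widely among controls, with 1.16, 0.273, 0.580, 0.145 and 0.0570, and measured 1.54, 3.40 and 2.11 in GC. Dusp1 measured 70.6, 51.4, 61.0, 54.6 and 60.1 in controls and 91.4, 83.5 and 75.4 in GC. These values did not overlap, although control 1 came near GC 5. In the 2 cells each of GC 1 and GC 4, Dusp1 was 65.5 and 33.8 and Klf9 4.54 and 0, while Zbtb16 was 8.43 and 7.73 and Fkbp5 11.5 and 9.84. With GC 1 and GC 4 counted, Dusp1 and Klf9 overlapped the controls.

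Klf9 rose by 3.35 ± 0.74 (limma adjusted p = 0.0102), Zbtb16 by 2.89 ± 0.62 (0.00908), Fkbp5 by 2.53 ± 0.67 (0.0332) and Dusp1 by 0.56 ± 0.15 (0.0302). These 4 of 8 members were called higher, against 4.83% of 4411 genes called and 2.09% called higher, and none lower. Both GC tumors stood above all controls for 5 of 8 members, the same 4 and Per1, against 11.3% of genes. Klf9 and Zbtb16 passed the filter only through the GC tumors, so both add no support to these counts. With edgeR only those 2 passed, with adjusted p of 0.00367 and 0.00859, whereas Fkbp5 (0.0572) and Dusp1 (0.192) did not. Without GC 3 limma called 0 of the 7 targets, with 4 at an unadjusted p under 0.05, and without GC 2 it called 2, with Klf9 at an adjusted p of 0.144. Both fits hold 1 GC tumor and take the spread from the controls. Fkbp5 was also lost without control 2, 4 or 5 (0.0514 to 0.0692) and Dusp1 without control 2, 3 or 4 (0.0556 to 0.0730).

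Tsc22d3 measured 6.67, 4.58, 3.38, 2.45 and 3.60 in control neutrophils and 3.73, 7.88 and 9.42 in GC (0.46 ± 0.35, limma adjusted p = 0.533), overlapping through GC 2. Sgk1 measured 0 to 0.705 in controls and 0.486, 2.41 and 1.02 in GC (1.47 ± 0.75, limma adjusted p = 0.310). Per1 measured 2.50 to 3.54 in controls and 3.66, 3.97 and 3.77 in GC (0.36 ± 0.30, limma adjusted p = 0.564). The receptor showed its largest difference here. Nr3c1 measured 3.86, 4.05, 3.40, 3.14 and 4.06 in controls and 1.44, 2.29 and 3.40 in GC tumors 2, 3 and 5, with a difference of -0.98 ± 0.30 that did not pass (limma adjusted p = 0.0707; 0.181 with edgeR). Both fitted GC tumors lay below all controls, while GC 5 lay within their range. The TAM list summed to 0.744 to 2.16 UMIs per 10000 in control neutrophils and 0.515 to 1.21 in GC, where 2 of its 5 genes were at 0, and the lists of B cells and of tumor or stroma were at 0 in both groups. The part of the TAM list in the member values was not tested.

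**Figure D2:**
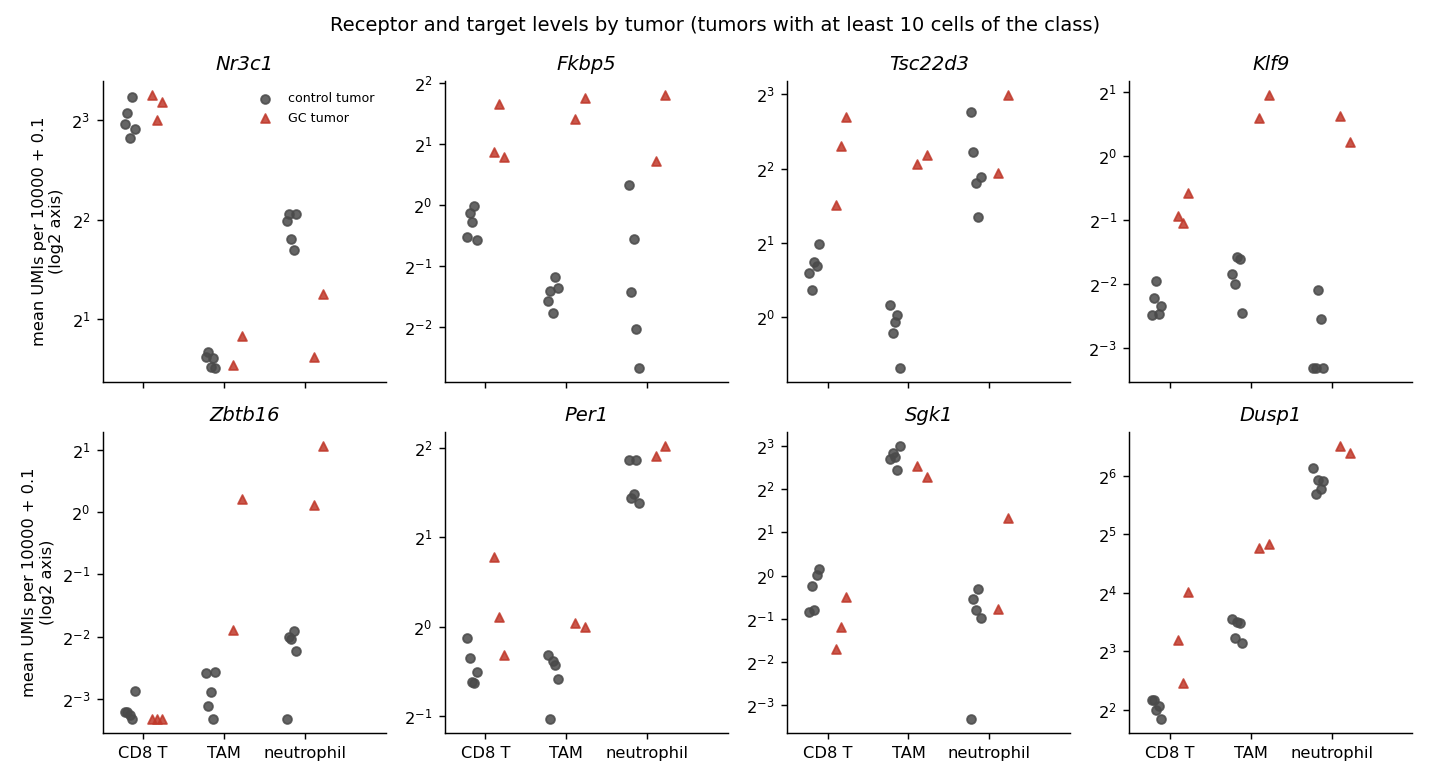
Level of each member (y axis, mean UMIs per 10000 plus 0.1, log2 axis) in CD8 T cells, TAMs and neutrophils (x axis) of each tumor with at least 10 cells of the class; circles are control tumors and triangles GC tumors. Fkbp5 and Klf9 lie above all controls in the 3 classes, Tsc22d3 in CD8 T cells and TAMs, and Nr3c1 in neutrophils lies below all controls in both GC tumors.

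The changes were then compared between classes within tumors, as the GC against control contrast of the difference between 2 classes in the same tumor. Fkbp5 rose less in CD8 T cells than in TAMs, with a difference of -1.48 ± 0.27 (log2, SE; limma adjusted p = 0.0136; 5.44% of genes called). That call held when each tumor was left out in turn, with adjusted p up to 0.0469. For Tsc22d3 the corresponding difference was -1.04 ± 0.33 (limma adjusted p = 0.0888), for Dusp1 -0.64 ± 0.22 (0.108) and for Sgk1 -0.77 ± 0.33 (0.179). None of these passed. Left with 1 GC tumor, where the spread comes from the controls alone and that tumor is assumed to vary like them, Tsc22d3 and Sgk1 had adjusted p of 0.00745 and 0.0160 without GC 3 and Dusp1 of 0.0018 without GC 2. These class differences have no edgeR value.

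TAMs and neutrophils differed for 2 members, where 1.67% of genes were called. Tsc22d3 changed more in TAMs by 1.82 ± 0.43 (limma adjusted p = 0.0457) and Dusp1 by 0.86 ± 0.19 (0.0312). The call of Tsc22d3 was lost without control 1, 2, 3 or 5 or GC 2 (adjusted p 0.0783 to 0.147), with a pseudocount of 1 (0.0589) and with tumors of at least 5 cells (0.0814), and that of Dusp1 without any control tumor or GC 3 (0.0600 to 0.0956). Between CD8 T cells and neutrophils none of the 6 members tested was called, against 1.66% of genes, with 2 at an unadjusted p under 0.05. These were Sgk1, at -2.58 ± 0.72 (limma adjusted p = 0.0842; 0.0470 without GC 2), and Nr3c1, at 1.11 ± 0.33 (0.103; 0.0262 without GC 3), where the values in parentheses without a tumor again rest on 1 GC tumor. Klf9 and Zbtb16 did not pass the filter in CD8 T cells of these tumors and were not compared there.

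To use all 10 tumors, each gene's level over all CD45+ cells of a tumor was divided by the level expected from the class make-up of that tumor and the control level of each class, so that a shift in class shares alone gives a log2 value of 0. Fkbp5 measured -0.10, -0.04, 0.20, 0.08 and -0.46 on this log2 scale in controls and 2.99, 2.17, 2.47, 2.75 and 1.82 in GC tumors 1 to 5. Klf9 measured -0.22 to 0.15 in controls and 4.46, 2.97, 2.00, 3.04 and 2.45 in GC. Tsc22d3 measured -0.22 to 0.23 in controls and 1.67, 0.67, 1.46, 1.36 and 1.69 in GC. These 3 genes were above all controls in each of the 5 GC tumors, the small tumors 1 and 4 included. Dusp1 measured -0.09 to 0.11 in controls and -0.22, 0.67, 1.19, 1.30 and 0.95 in GC, so GC 1 alone, with 18 cells, lay below the controls. Zbtb16 measured -0.49 to 0.53 in controls and 3.43, 0.77, 1.45, 1.17 and 0.71 in GC.

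Klf9 rose by 2.99 ± 0.36 (limma adjusted p = 7.12e-04), Fkbp5 by 2.50 ± 0.21 (1.03e-04) and Tsc22d3 by 1.39 ± 0.19 (0.00123). These were 3 of 8 members, all higher, where 7.11% of 6471 genes were called and 3.34% called higher. All GC tumors were above all controls for 4 of 8, the same 3 and Zbtb16, against 4.20% of genes. Klf9 stood under the filter in the observed level of each control tumor and adds no support to these counts. Zbtb16 (1.50 ± 0.44, limma adjusted p = 0.0633) and Dusp1 (0.79 ± 0.23, 0.0577) fell short. Both passed without GC 1 (0.0112 and 1.79e-04), Zbtb16 also without GC 5 (0.0494), and edgeR with the expected UMIs as an offset called Dusp1 (1.13e-04) and Per1 (0.0204) but not Zbtb16 (0.119). Per1 (0.36 ± 0.18, limma adjusted p = 0.281), Sgk1 (-0.52 ± 0.44, 0.546) and Nr3c1 (0.24 ± 0.11, 0.230) did not pass with limma. Sgk1 ranged from -2.54 in GC 4 to 0.49 in GC 1, and Nr3c1 from -0.08 in GC 2 to 0.58 in GC 4.

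**Figure D3:**
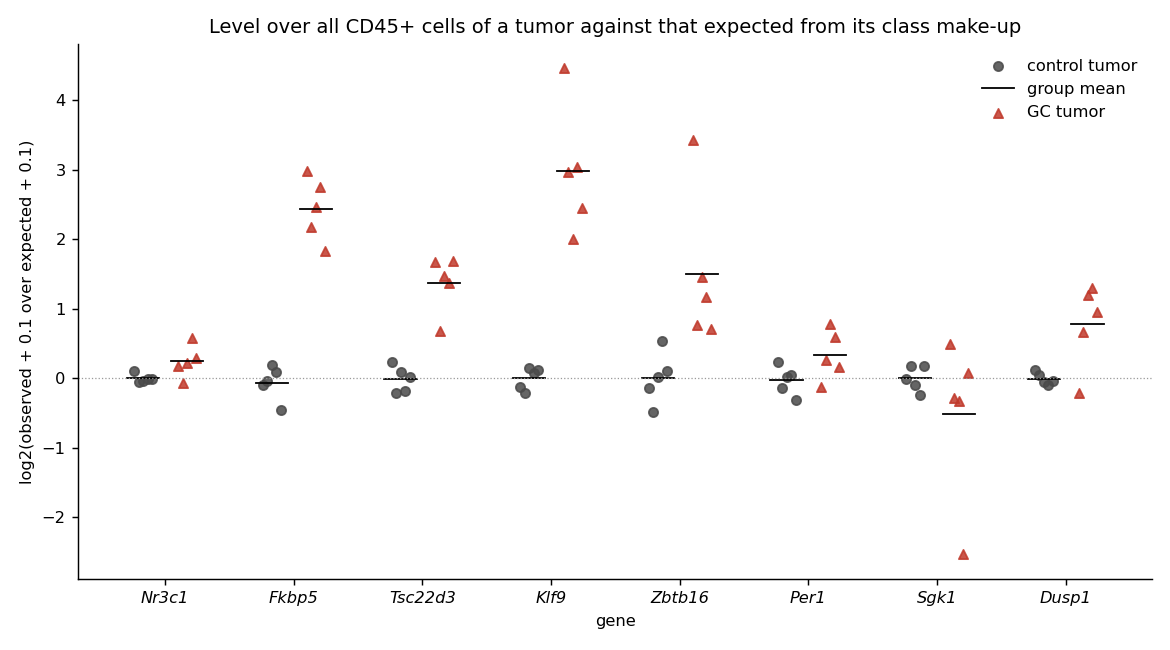
log2 of the observed over the expected level (y axis, both plus 0.1 UMIs per 10000) of each member (x axis) over all CD45+ cells of a tumor; circles are control tumors, triangles GC tumors and black lines group means. Fkbp5, Tsc22d3, Klf9 and Zbtb16 are above all controls in the 5 GC tumors, and Sgk1 reaches -2.54 in GC 4.

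The other classes reached 10 cells in at most 1 GC tumor, so they are given as UMIs pooled over tumors, without a test, with exact 95% intervals that cover counting error only and not the spread between tumors. Fkbp5 was higher in GC in every class measured. Its pooled ratio was 12.1 (9.60 to 15.1) in monocytes, close to the 11.9 (9.88 to 14.2) of TAMs, 8.96 (6.80 to 11.7) in Tregs, 5.70 (2.49 to 12.3) in eosinophils and 5.40 (3.47 to 8.49) in gdT cells. It was 4.56 (3.00 to 6.76) in the CD4 cluster and 3.42 (1.71 to 6.56) in DC 1, next to 3.28 (2.81 to 3.82) in CD8 T cells, whose interval lay below those of TAMs, monocytes and Tregs. The monocyte class joins clusters that differed in controls, with Fkbp5 at 0.180, 0.720 and 0.987 UMIs per 10000 in Monocytes 1, 2 and 3. Their shares among GC monocytes are not given here, and the part of such shares in the monocyte ratios was not tested.

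Tsc22d3 had ratios of 3.66 (3.28 to 4.07) in CD8 T cells, 3.65 (2.52 to 5.24) in DC 1, 3.42 (2.79 to 4.17) in monocytes and 2.93 (2.29 to 3.71) in Tregs. In gdT cells (1.73, 0.953 to 3.04) and eosinophils (1.29, 0.401 to 3.26) the interval included 1. Klf9 stood out in eosinophils, with 1 UMI in 478 control cells and 14 in 32 GC cells (159, 24.3 to 6744), and in Tregs, with 43 UMIs in 486 cells and 28 in 14 cells (16.6, 9.92 to 27.3). Its 14 eosinophil UMIs came from 4 GC tumors, with 5, 3, 1 and 5 in tumors 1, 2, 3 and 5. In DC 1 Klf9 gave 14 UMIs in controls and 2 in GC (0.978, 0.108 to 4.26). Dusp1 was higher in GC in all classes, from 1.40 (1.33 to 1.48) in neutrophils to 3.75 (3.12 to 4.50) in gdT cells.

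Among the remaining targets, Sgk1 differed in direction between classes. Sgk1 had pooled ratios under 1 in TAMs (0.671, 0.602 to 0.746), monocytes (0.702, 0.539 to 0.900) and CD8 T cells (0.727, 0.519 to 0.996), and above 1 in neutrophils (2.63, 1.58 to 4.40) and Tregs (1.89, 1.06 to 3.15). Of the 16 GC Treg UMIs of Sgk1, 14 came from 5 cells of GC 5. In DC 2 it gave 3 UMIs in 9 GC cells and 335 in 95 control cells (0.0775, 0.0159 to 0.229). Zbtb16, at 17.8 (11.0 to 29.4) in TAMs and 13.8 (6.66 to 31.9) in neutrophils, was 1.36 (1.03 to 1.79) in gdT cells, where controls were already high, and 1.18 (0.525 to 2.30) in monocytes. In Tregs it gave 0 UMIs in 486 control cells and 2 in 14 GC cells. Per1 was highest in DC 1 (4.16, 2.13 to 7.86), and in Tregs the interval spanned 1 (0.833, 0.331 to 1.75).

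The receptor itself had small pooled ratios. Its ratio was above 1 in gdT cells (1.64, 1.38 to 1.94), Tregs (1.40, 1.22 to 1.60), monocytes (1.39, 1.12 to 1.70) and CD8 T cells (1.27, 1.18 to 1.36), and below 1 in the CD4 cluster (0.718, 0.558 to 0.910), neutrophils (0.578, 0.417 to 0.787) and DC 2 (0.546, 0.286 to 0.955). In gdT cells 134 of 197 GC UMIs came from 6 cells of GC 3, and in Tregs 106 and 107 of 231 came from 5 cells each of GC 3 and GC 5. In TAMs (1.09, 0.900 to 1.32) the interval spanned 1.

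**Figure D4:**
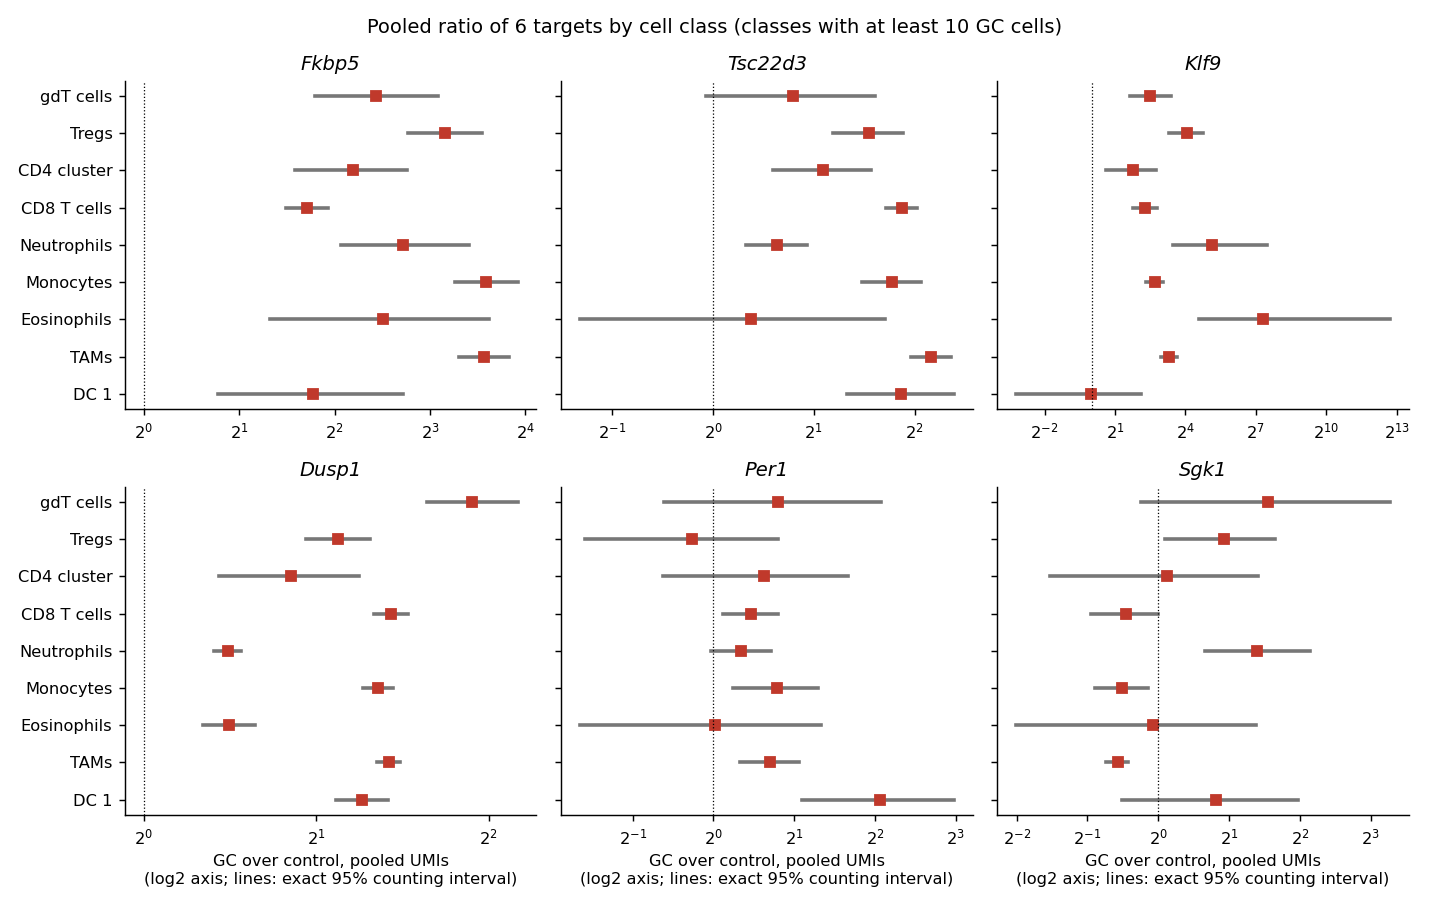
Pooled ratio of GC over control (x axis, log2 axis) of 6 targets in each class with at least 10 GC cells (y axis); squares are ratios of UMIs per 10000 and lines their exact 95% counting intervals, with a dotted line at 1. Fkbp5 and Dusp1 lie above 1 in all classes shown, and Sgk1 lies on both sides, from 0.671 in TAMs to 2.94 in gdT cells.

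The receptor level of a class in controls was then set against the size of its target response, taken as the mean over the 7 targets of the log2 ratio of pooled cell means, in the 9 classes with at least 10 GC cells. The response was 1.76 in neutrophils, 1.72 in TAMs, 1.65 in Tregs, 1.45 in eosinophils, 1.44 in gdT cells, 1.40 in monocytes, 1.28 in the CD4 cluster, 1.00 in DC 1 and 0.88 in CD8 T cells. TAMs, at 1.41 UMIs of Nr3c1 per 10000 cell UMIs, and Tregs, at 13.6, thus had about the same response at receptor levels far apart. The Treg value includes Zbtb16 at 1.65, from 2 GC UMIs against 0 in controls. It also includes Sgk1 at 0.77, with 14 of 16 GC UMIs from 5 cells of GC 5. In the CD4 cluster 8 of 10 GC UMIs of Klf9 came from 1 cell of GC 2. Such means are therefore rough. Over the 9 classes Pearson's r was 0.0047 and Spearman's rho 0, and r lay between -0.31 and 0.19 when each class was left out in turn. With the 5 classes that held at least 20 GC cells r was -0.70, and with a pseudocount of 1 over the 9 classes it was 0.31. These are descriptions without a test, since the classes share the same tumors, channels and depth. The rho of the response with the median UMIs of the class was -0.38. For single targets that rho was 0.75 for Tsc22d3, 0.73 for Per1 and -0.67 for Klf9. For Fkbp5, Zbtb16, Sgk1 and Dusp1 it lay between -0.25 and 0.48. The mean therefore hides links to depth of opposite sign, whose part in the response was not tested.

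Restricted to Fkbp5, Tsc22d3 and Klf9, the mean response was 2.71 in TAMs, 2.66 in both Tregs and eosinophils, 2.50 in monocytes, 2.26 in neutrophils, 1.74 in gdT cells, 1.64 in CD8 T cells, 1.63 in the CD4 cluster and 1.28 in DC 1. Over 9 classes r was -0.20 and rho -0.067, and with a pseudocount of 1 they were 0.11 and 0.17. Over the 5 classes with at least 20 GC cells the order was strictly inverse (r = -0.99), with CD8 T cells as the point of highest receptor and lowest response. Tregs and gdT cells, which have the most receptor, were not among these 5 because they held 14 and 11 GC cells. The single targets did not share this order over the same 5 classes. Their r was -0.92 for Fkbp5, 0.0092 for Tsc22d3 and -0.60 for Klf9, and the Klf9 ratio of eosinophils rests on 1 control UMI. Of single targets, r over 9 classes was -0.35 for Fkbp5 (0.20 with a pseudocount of 1), -0.36 for Tsc22d3, 0.082 for Klf9 and 0.42 for Sgk1.

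**Figure D5:**
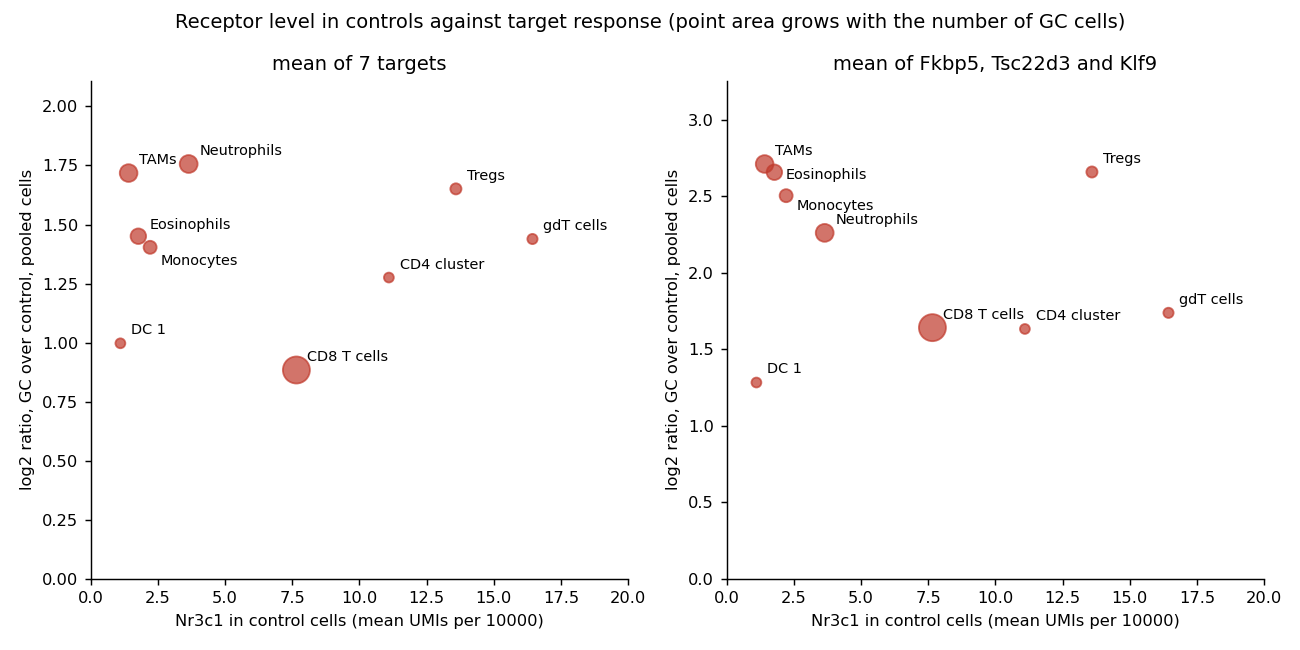
Mean level of Nr3c1 in control cells (x axis, UMIs per 10000) against the mean log2 ratio of GC over control (y axis) for 7 targets (left) and for Fkbp5, Tsc22d3 and Klf9 (right) in 9 cell classes; the area of a point grows with its number of GC cells. On the left TAMs (1.72) and Tregs (1.65) are level although their receptor levels lie far apart, and CD8 T cells (0.88) are lowest.

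Of 30 other genes known to be GC-induced in various tissues, 18 were tested in CD8 T cells and 4 rose. Il7r, the interleukin 7 receptor, went from 4.75 ± 0.64 to 14.2 ± 2.57 UMIs per 10000 (1.55 ± 0.15, limma adjusted p = 2.61e-04), and Cxcr4, a homing receptor, rose by 1.19. Nfkbia, the NF-kB inhibitor, rose by 0.77 and Txnip by 0.62. In TAMs 11 of 23 rose, led by Chil3, from 0.581 ± 0.212 to 25.4 ± 8.10 (5.25 ± 0.30), and the metallothioneins Mt2 (3.70) and Mt1 (2.37). Pik3r1 (0.91) and the decoy receptor Il1r2 (0.81) also rose there, Lcn2 went from 5.24e-04 to 0.812 UMIs per 10000, and Rgs2 fell by 0.51. In neutrophils 6 of 19 rose, namely Chil3, Mt1, Lcn2 (2.41), Klf13 (1.74), Txnip (1.30) and Rasd1, which was at 0 in all controls and at 0.864 ± 0.150 in GC. At least Rasd1 here and Lcn2 in TAMs passed the filter only through the GC tumors, so they add no support to these counts. Over all cells standardised, 8 of 24 rose, with Chil3 (5.35), Mt2 (2.22), Lcn2 (2.21), Mt1 (1.92), Txnip (1.09) and Il7r (1.04) changing most. The list's median log2 difference was 0.42, 0.44, 0.37 and 0.42 in these 4 comparisons, beside -0.09, -0.12, 0.03 and -0.08 over all genes tested. Of all genes tested, 2.27%, 6.86%, 2.09% and 3.34% were called higher with limma, in the same order. With edgeR 7, 12, 7 and 10 genes of the list were called, in either direction. The list was chosen with earlier results of these data known, so these counts are a description.

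The chaperones that hold the receptor, such as Hsp90ab1 and Fkbp4, gave no call with limma or edgeR in CD8 T cells (9 tested, 6 at an unadjusted p under 0.05), TAMs (6 and 1), neutrophils (6 and 0) or all cells standardised (8 and 2). Their median difference in CD8 T cells was -0.55, against -0.09 over all genes. Of the coregulators, Crebbp and Ep300, both acetyltransferases, fell in TAMs with limma by 0.43 and 0.45 but not with edgeR (adjusted p = 0.217 and 0.266). None of the other 9 tested in TAMs, of 11 in CD8 T cells (5 at an unadjusted p under 0.05, 0 with edgeR), 7 in neutrophils (0 and 0) or 11 over all cells (1 and 1) was called with limma. Among genes of ligand metabolism and efflux, Abcb1b, which encodes a steroid-exporting pump, rose by 0.75 in CD8 T cells (limma adjusted p = 0.0487; 0.0255 with edgeR). In TAMs, Abcb1b and Abcb1a fell by 1.47 and 0.87 with limma, and edgeR called neither (0.0992 and 0.237). The 1 gene tested in neutrophils and the 3 over all cells were not called by limma or edgeR, and none had an unadjusted p under 0.05.

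The study lists 24 genes as GC-induced both in cultured 20967 melanoma cells and in whole 20967 tumors, 5 of them members. Of the other 19, Rnf125 rose by 0.76 in CD8 T cells (4 tested), Mt1 and Mt2 rose and Rgs2 fell in TAMs (5 tested), Mt1 rose in neutrophils (4 tested), and Mt1, Mt2 and Rnf125 (0.68) rose over all cells (7 tested). Of 16 immediate early and dissociation genes, which share inducers with Dusp1, Dusp2 rose by 1.26 and Ier3 and Hspa1b fell by 1.36 and 1.26 in CD8 T cells with limma, and edgeR called none of them. In TAMs Jund rose by 0.73 and Egr1 fell by 1.65, in neutrophils Nr4a1 (-2.15), Atf3 (-1.20), Fosb (-1.10) and Junb (-0.65) fell, and over all cells Dusp2 rose by 0.75 and Nr4a1 fell by 1.01. At least 12 of the 16 did not pass in each of these comparisons. The fall of Nr4a1 over all cells was not called by edgeR (adjusted p = 0.368). Among clock genes other than Per1, Nr1d2 fell by 1.05 in CD8 T cells (5 tested) with limma but not with edgeR (adjusted p = 0.0998), and Bhlhe40 by 2.03 in neutrophils (3 tested). In TAMs (4 tested, 2 at an unadjusted p under 0.05) and over all cells (5 and 0) limma and edgeR called none.

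Of 6430 genes compared, the 5 whose control level over the 12 classes was most like that of Nr3c1 were Dock2 (r = 0.97), Gm42722 (0.97), Ncor1 (0.96), Prrc2c (0.96) and Trp53inp1 (0.96). Those whose pooled change over 9 classes was most like the mean of the 7 targets were Cct7 (r = 0.88), Slc9a7 (0.85), Tpst2 (0.80), Creb5 (0.79) and Clptm1l (0.79). The classes share tumors and libraries, and these genes are the extremes of the whole table, so the values are a description.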

How the data were processed

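Live CD45+ cells of 5 control and 5 GC tumors, each with a hashtag, were sequenced with a 3' kit, one channel per group. Per the submitters' processing notes and the methods of the study, reads were counted with Cell Ranger 7.1.0 on mm10 with introns included, and R 4.3.1 and Seurat 5.0.3 were used to keep cells with 1 hashtag that passed quality filters, to integrate and to cluster. The authors deposited natural log values, log(1 + UMIs per 10000), with a table of each cell's UMI count, mitochondrial percent, tumor and cell type. The UMI counts were recovered from the deposited natural log values and that table: 100% of 10330441 values above 0 were whole within 0.01. Cells with more than one hashtag had been removed before deposit, and no further doublet caller was run. Doublets within a tumor were not removed.

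The members and gene lists were chosen with earlier results of these data known. Levels are means over the cells of a class in a tumor. A class was tested over the tumors that held 10 or more of its cells, for genes that averaged 0.2 UMIs per 10000 or above, with limma 3.58.1 (R 4.3.3; trended, robust) on log2(level + 0.1), with Benjamini-Hochberg adjustment over all genes and a threshold of 0.05, two-sided. limma weighs tumors equally although their cells differ in number, so edgeR 4.0.16 (quasi-likelihood, on summed UMI counts) is given beside it, and DESeq2 1.42.0 was an alternative. Scripts were tested on simulated data, where limma with 5 control and 2 GC tumors of the cell numbers of the TAMs made more false calls than its threshold allows and edgeR did not. For that reason limma calls that edgeR does not share carry less weight. The simulated counts were drawn per tumor with the same spread for all genes, a form that edgeR assumes, and without variation between cells. They cannot show which tool is the better guide for these data. The class differences were fitted with limma only and were not simulated. Total UMIs per tumor ran from 2735708 to 9869474 in controls and from 139195 to 1235264 in GC. From the other lists, at most the 6 called genes with the largest change per list and comparison were named. Other alternatives were the pseudocount, no filter, other means and scalings, at least 5 cells per tumor, and leaving out each tumor. Promoters came from RefSeq, and the genome sequence was not used here.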

Additional observations from a re-analysis of the deposited data

Results flagged for a closer look

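A tumor stood far from the others of its group in 4 of 40 groups of 4 or 5 values examined, a rate to be read against the 1 in 20 that chance gives. Zbtb16 in CD8 T cells was highest in control 5, at 0.0372 UMIs per 10000, a level of single UMIs. Nr3c1 standardised for class was highest in control 1, at 0.11 on the log2 scale, which is small beside the range of the GC tumors. Zbtb16 standardised was highest in GC 1, at 3.43, and Sgk1 standardised was lowest in GC 4, at -2.54, and these tumors gave 18 and 22 cells.

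For 3 members the GC change differed between classes by a test of the difference itself. Fkbp5 changed less in CD8 T cells than in TAMs, by -1.48 (log2; limma adjusted p = 0.0136). Tsc22d3 changed more in TAMs than in neutrophils, by 1.82 (adjusted p = 0.0457), and so did Dusp1, by 0.86 (adjusted p = 0.0312). The call of Tsc22d3 was lost in 5 of 7 fits that left out a tumor and in both other alternatives (adjusted p 0.0589 and 0.0814), and that of Dusp1 in 6 of 7 fits that left out a tumor. Each of these tests rests on 2 GC tumors, and the cause of the differences was not tested.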

How the results depend on the processing

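Under all alternatives run, the calls of Fkbp5 and Tsc22d3 in CD8 T cells, of Fkbp5, Tsc22d3, Klf9 and Dusp1 in TAMs, of Fkbp5, Tsc22d3 and Klf9 over all cells and of Fkbp5 between CD8 T cells and TAMs were kept. Of 680 alternative values in all, 42 lost a call, 27 gained one and 10 reversed in sign, none of the 10 being called. The number of genes called in CD8 T cells, 309, was 167 with no filter, 195 with at least 5 cells and 135 to 604 when a tumor was left out, lowest without control 3 and highest without GC 2, and of the targets 2 were called in cluster CD8 1 alone and 3 to 4 without a tumor. In TAMs 1270 became 670 with edgeR, 735 with DESeq2 and 867 to 2117 without a tumor, highest without GC 3. The split of 411 higher and 859 lower was 415 and 255 with edgeR, 491 and 244 with DESeq2, 705 and 594 with cell means of the log values and 564 and 618 with median-of-ratios scaling. In CD8 T cells 140 and 169 became 240 and 140 with edgeR and 167 and 127 with median-of-ratios scaling. In neutrophils 213 became 390 with cell means of the log values and 105 to 241 without a tumor, lowest without GC 3, while the 4 targets called became 2 with edgeR, 2 with every UMI given equal weight and 0 to 4 without a tumor. Over all cells 460 became 196 with no filter, 813 with weights, 908 with edgeR, 944 without GC 1 and GC 4 and 207 to 729 without a tumor, lowest without control 4 and highest without GC 1. The 3 targets called became 5 when not standardised, with weights, with edgeR, without GC 1 and GC 4 or without eosinophils, and 3 to 5 without a tumor. Differences between classes went from 268 to 89 to 2160 (CD8 T cells and TAMs), from 60 to 14 to 140 and 115 with a pseudocount of 1 (CD8 T cells and neutrophils) and from 65 to 22 to 137 (TAMs and neutrophils). Values without GC 1 and GC 4, with the offset or without eosinophils were chosen after seeing the data, as was leaving out tumors from the differences between classes. Cells thinned to 500 UMIs by a random draw, which leaves expected levels unchanged, gave other Nr3c1 levels. They were 21.6 in gdT cells, 7.33 in NK cells, 2.66 in monocytes and 2.56 in DC 2. The r of receptor and response was -0.70 with at least 20 GC cells and 0.31 with a pseudocount of 1. Signs reversed for Nr3c1 in CD8 T cells (-0.053 with cell means of the log values, -0.18 in CD8 1 alone), in TAMs (-0.041 without GC 3, 0.25 without GC 2) and between them (-0.0049 without control 3, -0.25 without GC 2, 0.30 without GC 3), for Tsc22d3 in neutrophils (-0.067 without GC 3, 0.99 without GC 2), for Per1 between CD8 T cells and TAMs (-0.084 with at least 5 cells), for Dusp1 between CD8 T cells and neutrophils (-0.079 without GC 2, 0.51 without GC 3), and between TAMs and neutrophils for Klf9 (0.046) and Per1 (-0.015) with a pseudocount of 1. The causes of these moves were not tested. No paired analysis was possible because control and GC tumors came from different mice and share only a number. Depth limits the low targets most: in GC eosinophils, with a median of 721 UMIs per cell, and in classes of 10 to 14 GC cells a ratio can rest on a few molecules from one tumor.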
